A study of Homo sapiens with 6 samples.

Results

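The 43 genes described here encode lineage basic helix-loop-helix (bHLH) transcription factors. They were taken from a list of names, out of 20015 protein-coding genes of the GENCODE v44 annotation. The list and its groups were chosen with earlier results of these data known. bHLH factors bind DNA as dimers at short motifs called E-boxes. Factors made in only some tissues pair with the widely made E proteins, and Id proteins, which lack the DNA-binding part, hold E proteins in inactive pairs. Members of the family start the formation of neurons, skeletal muscle, heart, blood and endocrine cells, and in embryonic stem cells the promoters of many of them carry H3K4me3, a mark of active promoters, together with marks of the Polycomb complexes. H2AK119ub, the mark measured here beside H3K4me3, is the ubiquitin that Polycomb repressive complex 1 places on histone H2A. By the tissue they are best known for, 18 of the genes were grouped as neural, 13 as mesodermal and 3 as blood factors, 3 were E proteins and 6 were placed in no lineage. The groups are broad, since PTF1A and NEUROG3, for example, also act in the pancreas.

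The question the libraries address is whether H3K4me3 and H2AK119ub sit on the same chromatin fragment, which sequential chromatin immunoprecipitation (reChIP) asks by precipitating the chromatin with one antibody and the eluate with another. All 6 libraries came from untreated parental NCI-H661 cells, a line from a metastasis of a lung large cell carcinoma that expresses DPPA2 and DPPA4, with 2 biological replicates each of H3K4me3 then H2AK119ub (here K4-first), H2AK119ub then H3K4me3 (K119-first) and IgG in both steps (IgG–IgG). No library with 1 of the antibodies followed by IgG was analysed here, so carryover of the first antibody was not tested, and 1 line stands for the tumor type. The files hold peaks and no expression values, so the identity of the cells was not checked.

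For each gene, the peaks overlapping 1500 bp on either side of any of its transcript starts were read in each library. A peak was kept at a log2 fold over input above 1 and a false discovery rate (FDR) below 0.05. A reciprocal region is a stretch where kept peaks of both replicates of an order overlapped by more than 25% of both, and where the merged peaks of the 2 orders overlapped by the same rule. The libraries held 749681 to 1977663 reads in kept peaks after the antibody pairs and 58980 and 65433 after IgG–IgG. K4-first replicate 1 stood apart in how input was weighed: its kept peaks needed more than 0.657 reads per input read, against 7.90 in K4-first replicate 2 and 9.48 and 7.24 in the K119-first replicates. A peak missing from a list is therefore not a count of 0, and K4-first replicate 1 was also read with the input weight of replicate 2.

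The promoters of 4 genes that mark the ends of the results are shown first, each with the 250 bases before and the 50 bases after the gene start, from RefSeq on GRCh38.p14, written 5′ to 3′ on the strand of the gene with CpG dinucleotides in capitals. TCF3 (chr19:1652566-1652865, minus strand) and ATOH8 (chr2:85753741-85754040, plus strand) had the most reads in their lowest reChIP library among the E proteins and among the genes of no single lineage. LYL1 (chr19:13102809-13103108, minus strand) had no kept reChIP peak, and BHLHE23 (chr20:63006915-63007214, minus strand), a neural gene with many reads and no region, was chosen after its values were seen.
TCF3: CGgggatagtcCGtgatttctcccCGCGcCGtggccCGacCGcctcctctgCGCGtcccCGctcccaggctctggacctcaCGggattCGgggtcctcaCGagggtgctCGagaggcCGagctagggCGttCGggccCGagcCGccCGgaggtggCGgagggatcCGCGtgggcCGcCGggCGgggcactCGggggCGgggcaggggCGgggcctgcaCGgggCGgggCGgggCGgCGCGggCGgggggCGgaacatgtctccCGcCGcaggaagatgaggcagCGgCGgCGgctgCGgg
ATOH8: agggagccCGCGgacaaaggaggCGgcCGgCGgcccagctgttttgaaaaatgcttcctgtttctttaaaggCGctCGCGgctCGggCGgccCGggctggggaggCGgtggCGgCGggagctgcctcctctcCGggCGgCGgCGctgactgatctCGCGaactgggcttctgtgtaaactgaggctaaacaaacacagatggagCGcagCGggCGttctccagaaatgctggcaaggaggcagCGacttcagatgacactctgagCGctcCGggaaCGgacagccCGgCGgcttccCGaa
BHLHE23: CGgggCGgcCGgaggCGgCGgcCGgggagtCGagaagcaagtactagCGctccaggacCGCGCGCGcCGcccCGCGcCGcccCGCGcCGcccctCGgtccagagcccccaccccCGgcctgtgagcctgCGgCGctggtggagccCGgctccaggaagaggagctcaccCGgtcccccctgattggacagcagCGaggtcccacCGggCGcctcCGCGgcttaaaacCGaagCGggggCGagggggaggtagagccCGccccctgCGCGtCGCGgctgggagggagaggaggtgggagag
LYL1: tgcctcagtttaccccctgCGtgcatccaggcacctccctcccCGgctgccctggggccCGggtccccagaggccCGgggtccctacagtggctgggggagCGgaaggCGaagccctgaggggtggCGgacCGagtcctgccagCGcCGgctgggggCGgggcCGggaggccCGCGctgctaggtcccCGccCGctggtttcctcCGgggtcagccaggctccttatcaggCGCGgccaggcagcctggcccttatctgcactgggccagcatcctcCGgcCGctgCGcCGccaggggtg
TCF3 held 43 CpG in these 300 bases, BHLHE23 held 38, ATOH8 30 and LYL1 23. As many or more were found in 4.98%, 9.91%, 22.4% and 35.8% of the 35116 promoters of the table, in that order, and the median was 14. BHLHE23, without a region, thus had more CpG at its start than ATOH8, with one. Of the 43 genes, 33 were in the table, and TCF15 was not among them.

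Of the 43 bHLH genes, 6 had a reciprocal region at a promoter, 14% against 20.9% of all protein-coding genes. They were the E protein genes TCF3 and TCF12, the somite factor gene TCF15, and ASCL2, ATOH8 and BHLHE40 of no single lineage. None of the 18 neural genes and 1 of the 13 mesodermal genes had a region, and no blood factor gene had one. Genes are not replicates of a condition, and the groups were chosen with earlier results known, so no test was made between the groups. Without K4-first replicate 1 the same 6 genes were found, and without K119-first replicate 1 ASCL2 was lost. With a library left out, the remaining replicate stood for its order, so the overlap of replicates was no longer asked there.

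TCF3 and TCF12 encode E proteins, the partners with which most tissue-restricted bHLH factors bind DNA. At TCF3, the largest kept peak held 254 and 118 reads in the K4-first replicates and 547 and 175 reads in the K119-first replicates. TCF12 had 221 and 102 reads in K4-first and 369 and 147 reads in K119-first. In these raw reads the orders overlapped at both genes, with the highest value in K119-first replicate 1. Scaled to the reads in all kept peaks of the library, as CPM, they did not: TCF3 had 128 and 157 CPM in K4-first against 372 and 217 CPM in K119-first, and TCF12 had 112 and 136 CPM against 251 and 183 CPM. The region of TCF3 covered 2500 bp (chr19:1650401-1652900, hg38), from 285 bp before to 2214 bp after the canonical start, with exon 1 and 7 of 18 annotated starts. The region of TCF12 covered 2400 bp (chr15:56918401-56920800), from 243 bp before to 2156 bp after the start, with exons 1 and 2 of the canonical transcript and 7 of 25 starts, and it also held starts of the noncoding gene TCF12-DT and of the protein-coding gene ENSG00000285253. Reads at TCF12 cannot be divided among these genes. The third E protein gene, TCF4, had a kept peak of 54 reads over 1100 bp at its canonical start in K4-first replicate 1, and the other libraries had nothing above 3 reads at any of its 90 starts.

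TCF15, also called paraxis, acts in the somites, from which skeletal muscle and vertebrae form. Its peaks held 138 and 80 reads in K4-first and 96 and 44 reads in K119-first, with 1, 2, 0 and 0 input reads. All 4 libraries were thus well filled over nearly empty input. In K4-first replicate 1, its 138 reads per input read lay at the 99.9th percentile of protein-coding genes with at least 10 reads and an input read. The region covered 1800 bp (chr20:609001-610800), from 491 bp before to 1308 bp after the start, with exon 1 of 2. Where at least 1 input read was required of a peak, TCF15 lost its region.

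ASCL2 acts in trophoblast and intestinal stem cells. It had 266 and 99 reads in K4-first and 115 and 16 reads in K119-first. In K119-first replicate 2 the peak covered 700 bp inside the gene, from 988 to 1687 bp after the start, against 2700 to 3100 bp in the other libraries. The region (chr11:2268501-2271900) spanned 3400 bp, from 1312 bp before to 2087 bp after the start, with both exons. ATOH8, a bHLH gene known from liver and endothelium, had 485 and 239 reads in K4-first and 341 and 166 reads in K119-first. Its peaks were the widest of the 6 genes in every library, 3800 to 4200 bp, and its region spanned 5000 bp (chr2:85752001-85757000) with exon 1 and 2 of 5 starts. BHLHE40 encodes a repressor that acts in the circadian clock and in the response to low oxygen. It had 192 and 170 reads in K4-first and 229 and 138 reads in K119-first. The orders overlapped at BHLHE40 both in these reads and in CPM of kept peaks (97.1 and 227 against 156 and 171). Its region spanned 4700 bp (chr3:4977401-4982100) with exons 1 to 4 of 5 and the start of the antisense gene BHLHE40-AS1. Whether reads in these peaks belong to the gene or its antisense neighbor cannot be told apart. With an overlap above 50% of both peaks required, ASCL2 and BHLHE40 lost their regions, and with a log2 fold above 2 only ASCL2 and TCF15 of the 43 kept theirs.

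**Figure D1:**
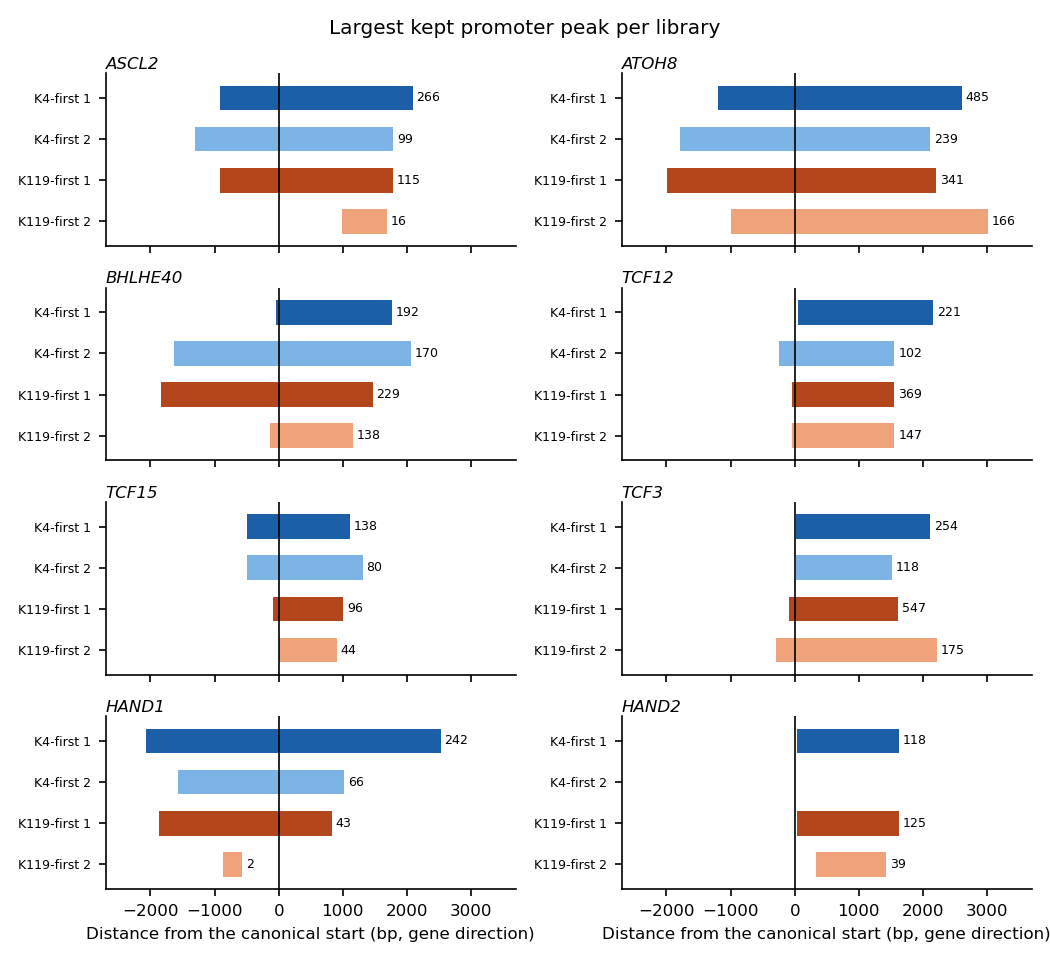
Extent of the largest kept promoter peak in each reChIP library (bars) along the distance from the canonical transcript start (horizontal, in bp, in the direction of the gene; vertical line, start) for the 6 bHLH genes with a reciprocal region and for HAND1 and HAND2. Numbers beside the bars are reads. The bars of TCF3 and TCF12 start near the line and run into the gene, those of ATOH8 reach 990 bp or more to its left, and HAND2 has no kept bar in K4-first replicate 2.

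At the neural genes, peaks of K4-first replicate 1 had no kept counterpart of 10 or more reads at the promoter in the other libraries, except at BHLHE23. A kept promoter peak of at least 10 reads was found in this library at 14 of the 18 neural genes and at 7 of the 13 mesodermal genes, 30 of the 43 in all (69.8%), against 70.6% of all protein-coding genes. In K4-first replicate 2 there were 7 of the 43 (16.3%, all genes 29.7%), of which 0 neural and 2 mesodermal. K119-first replicate 1 had 9 of the 43 (20.9%, all genes 39.4%), with BHLHE23 as the neural gene and 3 mesodermal genes. K119-first replicate 2 had 8 of the 43 (18.6%, all genes 26.4%), again with 0 neural and 3 mesodermal genes. The bHLH genes were thus near the background in the first library and below it in the other 3. Such a peak in K4-first replicate 1 and in no other reChIP library was found at 20 of the 43 genes (46.5%) and at 26.6% of all genes. These 20 comprised 13 neural genes, the mesodermal BHLHA9, MESP1 and MESP2, the blood factor gene TAL1, and TCF4, ASCL4 and BHLHE41.

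**Figure D2:**
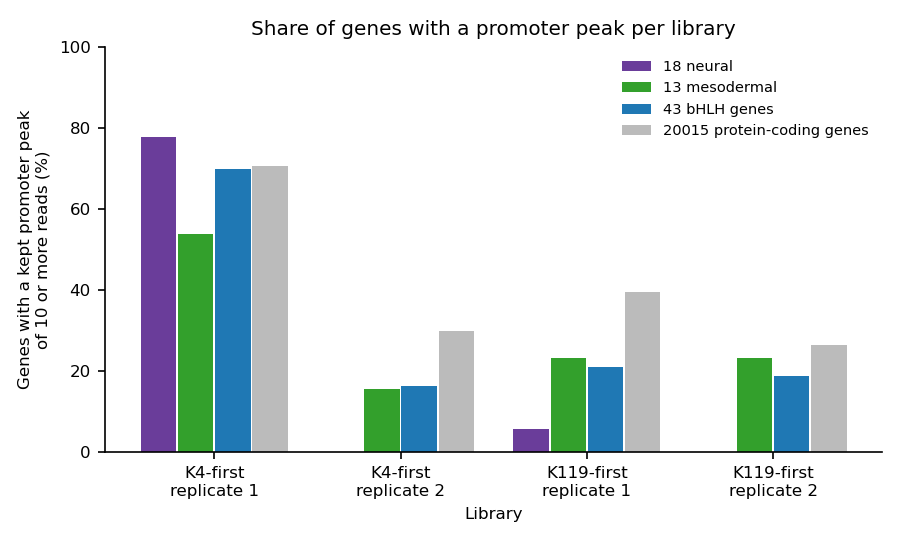
Share of genes (vertical, percent) with a kept promoter peak of at least 10 reads in each reChIP library (horizontal), for the 18 neural, the 13 mesodermal and all 43 bHLH genes and for all 20015 protein-coding genes. In K4-first replicate 1 the neural bar is the highest, at 77.8%, and in the other 3 libraries it is at 0%, 5.56% and 0%, below the other bars.

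BHLHE23 had the most reads of the neural genes. It encodes a repressor related to the OLIG factors and expressed in retina and brain, and its peak in K4-first replicate 1 held 463 reads over 4600 bp (chr20:63004801-63009400), from 2436 bp before to 2163 bp after the start. K119-first replicate 1 had a kept peak of 212 reads over 3600 bp. K4-first replicate 2 and K119-first replicate 2 listed peaks of 139 reads over 4000 bp and of 28 reads over 1200 bp, but with log2 folds of 0.68 and 0.95, which lie under the limit of 1. Without any limit on the fold, BHLHE23 had a reciprocal region, the 1 neural gene that did.

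NEUROD2, a factor of cortical neurons, had 455 reads over 5100 bp in K4-first replicate 1 (chr17:39603501-39608600). In K4-first replicate 2 a peak of 149 reads over 3600 bp fell short of the limit at a log2 fold of 0.92, beside 2 kept peaks of which the largest held 2 reads, and the K119-first replicates had no kept peak and 1 of 2 reads. With the 29 input reads of the first peak, a kept peak would have needed more than 19.1 reads in K4-first replicate 1, but 229, 275 and 210 reads in the other libraries in the order named above. OLIG1 and OLIG2, neighbors on chromosome 21 that act in oligodendrocytes, had 279 reads over 2800 bp and 120 reads over 3500 bp in K4-first replicate 1. For OLIG1, K4-first replicate 2 listed 83 reads at a log2 fold of 0.49 and each K119-first replicate had a peak of 2 reads. OLIG2 was listed with 21 reads (log2 fold 0.83) in K4-first replicate 2 and 36 reads (log2 fold 0.93) in K119-first replicate 1, and not at all in K119-first replicate 2. At these 3 genes both K4-first replicates thus held reads over the promoter, and the largest listed peak of replicate 2 fell short of the fold limit.

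The proneural genes NEUROG1 and NEUROG2, which commit progenitors to the neuronal fate, had 75 reads over 2100 bp and 195 reads over 3200 bp in K4-first replicate 1. NEUROG2 was listed below the limit with 93 reads (log2 fold 0.86) in K4-first replicate 2 and 88 reads (log2 fold 0.63) in K119-first replicate 1, beside small kept peaks of 3 and 7 reads in the K119-first replicates. NEUROG1 had 31 reads (log2 fold 0.65) in K4-first replicate 2, 2 reads in K119-first replicate 1 and no peak in K119-first replicate 2. NEUROG3, needed for endocrine cells of the pancreas, had kept peaks of at most 125, 3 and 4 reads in K4-first replicates 1 and 2 and K119-first replicate 2, none in K119-first replicate 1, and a peak of 29 reads (log2 fold 0.88) not kept in K4-first replicate 2. NHLH2, a gene of hypothalamic neurons, had 76 reads in K4-first replicate 1, in a peak from 1126 to 3525 bp after the canonical start. At its promoter it had 3 reads in K4-first replicate 2 and none in K119-first replicate 2. K119-first replicate 1 listed 25 reads (log2 fold 0.81) that were not kept. The K4-first replicates shared a peak at NHLH2 by the overlap rule, as given below, and peaks farther than 1500 bp from its starts were not read. Of the 13 neural genes with at least 10 reads in K4-first replicate 1 alone, 7 (53.8%) had such a listed peak of at least 10 reads below the limits in another reChIP library, namely NEUROD2, NEUROG1, NEUROG2, NEUROG3, NHLH2, OLIG1 and OLIG2. Among all 43 genes this held for 8 of 20 (40%), TAL1 being the eighth, and among all protein-coding genes with that pattern for 27.6%.

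For the remaining neural genes with a filled library, no such second peak was listed. ATOH1, a factor of inner ear hair cells and cerebellar granule cells, had 75 reads over 2100 bp in K4-first replicate 1, 2 and 3 reads in K4-first replicate 2 and K119-first replicate 1, and none in K119-first replicate 2. PTF1A had 96 reads over 2400 bp in K4-first replicate 1, none in K4-first replicate 2, and 3 and 9 reads in the K119-first replicates. BHLHE22, a gene of cortical and retinal neurons, had 99 reads over 2300 bp in K4-first replicate 1 and no peak in the other 3 reChIP libraries. These peaks were each over 2000 bp wide. ATOH7 had 20 reads in K4-first replicate 1, 3 in K4-first replicate 2 and 2 in K119-first replicate 2, and none in K119-first replicate 1. NEUROD1 and OLIG3 had 11 reads each in K4-first replicate 1, none in K4-first replicate 2, 4 and 2 reads in K119-first replicate 1 and none in K119-first replicate 2, and the peak of OLIG3 lay upstream of its start and ended 907 bp before it. The last 4 neural genes had no peak of 10 reads in any reChIP library. NEUROD4, NEUROD6 and FERD3L had peaks of 2 to 6 reads, and NHLH1 had no kept reChIP peak.

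At the 14 neural genes with at least 10 reads in K4-first replicate 1, the median was 97.5 reads over 2350 bp, or 37.9 reads per kb, against 84.0 reads over 1600 bp, or 54.0 reads per kb, over all protein-coding genes with such a peak. The neural peaks were thus wider and held fewer reads per kb than those of all genes. The 7 mesodermal genes had medians of 118 reads, 1800 bp and 52.6 reads per kb. In reads per input read of the same peaks, the neural median was 10.4 (range 1.83 to 18.6) and the mesodermal 13.4, with 11.5 over all genes. The 6 genes with a region had a median of 28.5, and the lowest of them, BHLHE40 at 24.0, stood above the highest neural value, OLIG1 at 18.6. This library also entered the regions, so its values are no independent check of them.

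**Figure D3:**
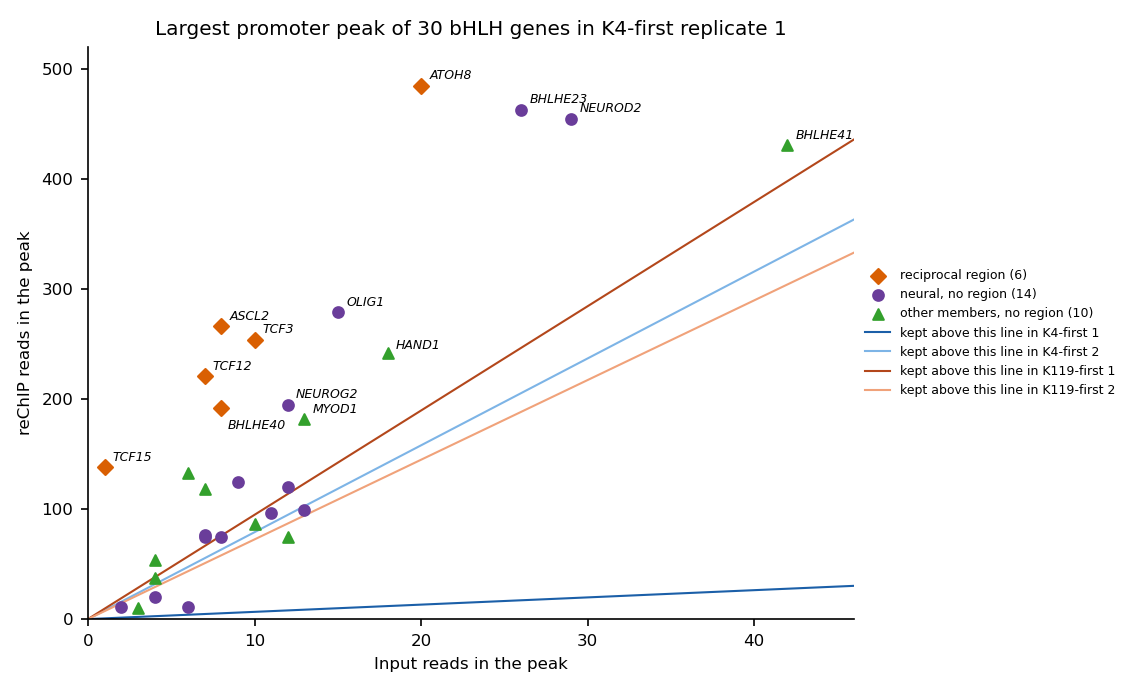
Reads (vertical) against input reads (horizontal) of the largest promoter peak of the 30 bHLH genes with at least 10 reads in K4-first replicate 1, by whether the gene had a reciprocal region. Each line gives the reads per input read above which a peak is kept in 1 of the 4 reChIP libraries, 0.657 for K4-first replicate 1 and 7.24 to 9.48 for the others. All points lie above the lowest line, and the 6 genes with a region have the most reads per input read, all above the 3 steep lines.

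Scoring K4-first replicate 1 with the input weight of replicate 2 was an alternative added after the data were seen. With it, 24 of the 43 genes had a kept peak of at least 10 reads there, against 51.1% of all protein-coding genes. Among them were 10 neural and 5 mesodermal genes. The 6 reciprocal regions remained, but their genes had at least 24.0 reads per input read there, above the 7.90 asked, so this is no check of them. The weight was not matched to the reads in kept peaks, 1977663 in replicate 1 and 749681 in replicate 2. The neural genes lost under this weight were ATOH7, BHLHE22, NEUROD1 and OLIG3.

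Among the mesodermal genes, HAND1 and HAND2, needed for heart and limb formation, came nearest to a region beside TCF15. HAND1 had 242 and 66 reads in K4-first and 43 and 2 reads in K119-first. HAND2 had 118 reads in K4-first replicate 1, 125 and 39 reads in K119-first, and 52 reads in K4-first replicate 2 that were not kept at a log2 fold of 0.72. HAND2 thus lacked a kept peak in 1 library. HAND1 had a kept peak in all 4, but that of K119-first replicate 2 covered 300 bp against 2700 bp in replicate 1, less than the overlap rule asks. HAND1 had a region without K119-first replicate 2 or with any shared base accepted, and HAND2 without K4-first replicate 2 or without a limit on the fold.

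MYOD1, the master gene of skeletal muscle, had 182 reads over 3300 bp in K4-first replicate 1, 6 reads in K4-first replicate 2, no kept peak in K119-first replicate 1 and 19 reads in K119-first replicate 2. The other myogenic factor genes were nearly empty, with no kept reChIP peak at MYF5, 2 and 3 reads at MYF6 in the K119-first replicates and 3 reads at MYOG in K119-first replicate 1. MESP1, which marks the earliest cardiac mesoderm, had 86 reads over 1800 bp in K4-first replicate 1 and nothing in the other reChIP libraries. MESP2, of somite segmentation, had 10 reads in K4-first replicate 1, none in replicate 2, and 3 reads in each K119-first replicate. BHLHA9, a limb gene, had 75 reads in K4-first replicate 1 over a peak that ended 1244 bp before its start, 2 reads in K4-first replicate 2 and K119-first replicate 1, and none in K119-first replicate 2. MSC, SCX and TCF21, genes of muscle, tendon and visceral mesenchyme, had peaks of 2 to 6 reads. In all, 6 mesodermal genes and 13 of the 43 (30.2%) had no promoter peak of at least 10 reads in any reChIP library, against 29.2% of all protein-coding genes.

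TAL1 is needed for the start of blood formation, and LYL1 is its close relative. At TAL1, K4-first replicate 1 had 133 reads over 1900 bp from 475 bp before to 1424 bp after the start, K4-first replicate 2 had 3 reads beside 25 reads not kept (log2 fold 0.66), K119-first replicate 1 had 43 reads not kept (log2 fold 0.86) and K119-first replicate 2 had none. LYL1 had no kept reChIP peak, with 23 CpG in the 300 bases printed above and 79 CpG within 1500 bp of its start, where the median of all protein-coding genes was 115. TAL2 had 2 reads in K119-first replicate 2, and the epidermal gene ASCL4 had 37 reads in K4-first replicate 1 and 4 reads in K119-first replicate 2. BHLHE41, the close relative of BHLHE40, had 431 reads over 3200 bp in K4-first replicate 1 (chr12:26124201-26127400) and no peak in the other 3 reChIP libraries, kept or not. In K4-first replicate 1 the BHLHE41 peak held 10.3 reads per input read and that of BHLHE40 held 24.0. With the 42 input reads of the BHLHE41 peak, a kept peak would have needed more than 304 to 398 reads in the other libraries, above the 138 to 229 reads of BHLHE40 there, so the lists do not show whether the pair differed in reads in those libraries. ASCL3 had a peak of 2 reads in K119-first replicate 1.

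Shared peaks of the replicates of 1 order were found at 8 of the 43 genes for K4-first (18.6%, all genes 33%) and at 11 for K119-first (25.6%, all genes 30%). The K4-first list was the 6 genes with a region, HAND1 and NHLH2, and the K119-first list the same 6 with HAND2, MESP2, MSC, MYF6 and NEUROD4. Those of MESP2, MSC, MYF6 and NEUROD4 rest on peaks of 2 to 6 reads. At NHLH2, the peak of 3 reads in replicate 2 covered 200 bp of the 2400 bp peak of replicate 1. This is less than the overlap rule asks, so the shared peak does not rest on it. The matching peak of replicate 2 was not identified, since reads were taken only from peaks within 1500 bp of a start.

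The IgG–IgG libraries give the background of the antibody steps. Kept IgG–IgG peaks lay at 6 of the 43 promoters, 14% against 19.1% of all protein-coding genes, at BHLHA9, MSC, NEUROG2, NHLH2, TCF12 and TCF3, and each held 2 reads. Of these, the peak at TCF12 in IgG–IgG replicate 2 lay inside its reciprocal region, 357 to 556 bp after the start, and that at TCF3 lay 31415 bp downstream of the canonical start, at another start of the gene. When peaks overlapping IgG–IgG peaks were left out, TCF12 lost its region and the other 5 genes kept theirs. In kept peaks at all member promoters there were 5533, 937, 2157 and 845 reads in the K4-first and K119-first replicates and 6 and 8 reads in the IgG–IgG replicates. The mean was 2368 ± 2193 (SD, n = 4) against 7 ± 1.41 (SD, n = 2), and the groups did not overlap. A promoter without a kept peak added nothing to these sums, although a missing peak is not a count of 0. The test and the shares below therefore compare called peaks, and reads outside them were not compared. A one-sided exact permutation test over the libraries gave p = 0.0667, the smallest that 15 arrangements of 4 against 2 allow, so the design cannot reach 0.05. As a share of the reads in kept peaks of its library, this came to 0.280% (95% Wilson interval 0.273 to 0.287) and 0.125% (0.117 to 0.133) in K4-first, 0.147% (0.141 to 0.153) and 0.105% (0.0981 to 0.112) in K119-first, and 0.0102% (0.00466 to 0.0222) and 0.0122% (0.00620 to 0.0241) in IgG–IgG. The lowest antibody share was above the highest IgG–IgG share, with the same exact permutation p of 0.0667. The intervals cover counting error only, total depth is unknown, and its part in the low IgG–IgG values was not tested.

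The order of the antibodies was compared over 6866 genes with a kept promoter peak in all 4 reChIP libraries, by the edgeR quasi-likelihood test on all reads in kept promoter peaks of a gene. None was called at an adjusted p below 0.05 (0%), with 447 at an unadjusted p below 0.05, and DESeq2 called 44 of 6067, none of them a bHLH gene. Of the bHLH genes, 8 could be tested. TCF3 had 265 and 127 reads in K4-first and 556 and 189 reads in K119-first, a log2 ratio of −1.21 ± 0.284 (SE) with an unadjusted p of 0.00747 and an adjusted p of 0.689 by edgeR. TCF12 had a log2 ratio of −0.92 ± 0.252 (SE), with an adjusted p of 0.689 as well. Both E protein genes had more reads in the K119-first libraries by these ratios, without passing the test over all genes. Toward H3K4me3 first, HAND1 had a log2 ratio of 2.59 ± 1.04 (SE) and ASCL2 of 1.29 ± 0.622 (SE), both with an adjusted p of 0.689, and with 1 library of either order left out the ratio ranged from 1.87 to 4.97 for HAND1 and from 0.78 to 2.35 for ASCL2, lowest without K119-first replicate 2 (2 and 16 reads) and highest without K119-first replicate 1. TCF4 (1.56 ± 0.926) was compared from peaks of 2 or 3 reads in 3 of the libraries. TCF15, ATOH8 and BHLHE40 had log2 ratios of 0.32, 0.11 and −0.05, each smaller than its SE. The peaks differed in width between libraries. Per kb of called peak, HAND1 was at 1.42 ± 0.680 (SE), ASCL2 at 0.41 ± 0.591 (SE) and BHLHE40 at −1.20 ± 0.563 (SE). On that scale TCF12 was at −1.39, TCF3 at −1.13 and ATOH8 at 0.26, with a median of all genes of −0.39, and none was called.

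**Figure D4:**
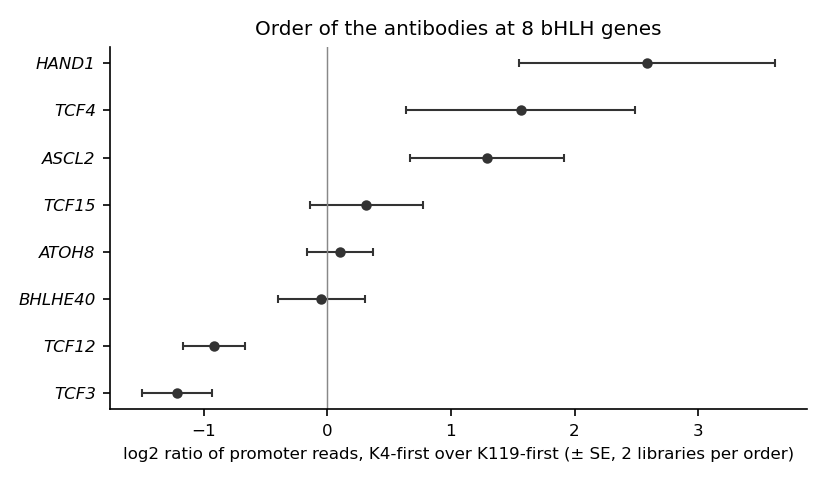
The log2 ratio of reads in kept promoter peaks between the orders, K4-first over K119-first (horizontal), for the 8 bHLH genes that could be tested (vertical), with bars of 1 SE from edgeR and 2 libraries per order. TCF3 and TCF12 lie at −1.21 and −0.92, HAND1 at 2.59 with the longest bar, and no gene passed the adjusted test.

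The number of CpG at the promoters varied widely among the bHLH genes with and without a region. Within 1500 bp of the canonical start, the 6 genes with a region had a median of 241 CpG (198 to 326) and the 37 without had 147 (24 to 304), with 115 over all protein-coding genes and 171 over those with a region. The neural genes had a median of 171 and the mesodermal genes of 177, both above that of all protein-coding genes. The 13 genes without a peak of 10 reads in any reChIP library had 72 (24 to 216), from NEUROD6 with 24 and NHLH1 with 26 to MSC with 149 and SCX with 216, the last within the range of the 6 genes. The neural genes BHLHE23 with 304, PTF1A with 259, NEUROG2 with 240, BHLHE22 with 221 and OLIG1 with 200 had no region despite counts within the range of the 6 genes. The same held for the mesodermal genes HAND2 with 233 and MYOD1 with 205, beside SCX. These are descriptions over genes, given without a test.

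The genes that partner or inhibit bHLH factors were read in the same way. This list too was chosen with earlier results of these data known, so its share is a description. Of 13, 5 had a reciprocal region (38.5%, all protein-coding genes 20.9%): the Id inhibitor genes ID3 and ID4, the LIM-domain partner genes LMO1 and LDB1, which TAL1 complexes contain, and the ETO corepressor gene CBFA2T3. ID4 held more reads than any of the 43 bHLH genes in the K119-first replicates, with 441 and 392 reads in K4-first and 836 and 529 reads in K119-first. The region of ID4 also held the start of the noncoding gene LNC-LBCS, and the reads cannot be divided between them. ID3 had 216 and 124 reads in K4-first and 156 and 97 reads in K119-first. LDB1 had 220 and 96 reads in K4-first and 195 and 61 reads in K119-first. LMO1 was the weakest of the 5, with 95, 41, 43 and 9 reads in the same order of libraries. CBFA2T3 had 428, 161, 531 and 115 reads at downstream starts. Its region lay 34707 to 37806 bp from the canonical start and held 4 of 11 starts. It also held starts of the noncoding genes ENSG00000205018 and ENSG00000261226, so these reads cannot be divided either. ID2, ID3, ID4, LMO1, LDB1, CBFA2T3 and RUNX1T1 could be tested between the orders, and none was called by edgeR's quasi-likelihood test or had an unadjusted p under 0.05. The smallest unadjusted p among them was 0.105 for LDB1, with a log2 ratio of 0.59 ± 0.298 (SE), followed by 0.11 for ID4, at −0.96 ± 0.499 (SE). The Id genes ID1 and ID2 had no region, and ID1 missed it through K4-first replicate 2, where 182 reads had a log2 fold of 0.83 and the other libraries held 236, 320 and 210 reads.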

How the data were processed

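All 6 reChIP-seq libraries were used, grouped by the submitters' labels. Per the submitters' processing notes, reads were trimmed with Trim Galore 0.6.6, aligned to hg38 with BWA 0.7.13 and processed with SAMtools 1.9 and Picard 2.6.0. Each replicate was then searched for peaks in bins of 100 bp against input by the authors, using EPIC2.

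The deposited counts of reads and of input reads per peak are whole numbers and not scaled. The deposited p-value and FDR are the authors' test of these counts within a library. The deposited log2 fold is reads over scaled input reads, with a small value where there is no input read, and the deposited score is derived from it. Reads outside peaks are not listed, so total depth is unknown, and a peak below the caller's limit is missing rather than 0. The scale of input reads was recovered from the folds, and its relation to depth was not tested.

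Kept peaks, reciprocal regions and promoters were defined as in the text, on chromosomes 1 to 22, X and Y. The methods give 25% without naming the peak it refers to, so both were required, and the authors' exclusion of blacklisted regions was not repeated. Values in every library are given for each gene with a region or with a kept peak of at least 10 reads in a reChIP library, and other genes by ranges. The gene list, its groups and the list of partners were chosen with earlier results of these data known. Orders were compared with edgeR 4.0.16 (DESeq2 1.42.0 as an alternative) in R 4.3.3. Nothing says that same-numbered replicates share a batch, and their deviations correlated at r = 0.05 over 6866 genes (Pearson, across genes, which are not independent), so they were not paired. Alternatives changed the fold, FDR, read, input, overlap and promoter limits, removed peaks overlapping IgG–IgG peaks, and left out each library. Scripts were tested on simulated data and used Python 3.11.15, numpy 2.4.6, pandas 2.3.3 and matplotlib 3.10.9.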

Additional observations from a re-analysis of the deposited data

How the results depend on the processing

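The number of bHLH genes with a reciprocal region was 6 and lay between 4 and 8 under all alternatives but a log2 fold above 2, which left 2 (ASCL2 and TCF15). The neural count of 0 became 1 without a limit on the fold (BHLHE23), and ranged from 0 to 1 with a library left out, where NEUROD4 entered without K4-first replicate 2 on peaks of 2 to 6 reads. The mesodermal count of 1 became 2 without a limit on the fold or with any shared base accepted, 0 where an input read was required, and ranged from 1 to 2 with a library left out. The 6 genes with an IgG–IgG peak became 0 when at least 10 reads or an input read were required, and 3 to 4 with a library left out. Between the orders, DESeq2 called 44 genes in place of 0, and leaving out a library gave 0 to 128, the 128 without K119-first replicate 1, all higher in K4-first. No bHLH gene was called under any setting.

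With the replicate block, in which the orders were overlapped within a replicate number first, 5 bHLH genes had a region, ASCL2 being lost, and no gene was called between the orders. The numbers share no stated batch, so this is no pairing. Log2 ratios between the orders changed sign for 4 genes, none of them called. ATOH8 ranged from −0.071 to 0.26 and BHLHE40 from −0.40 to 0.26 with a library left out, and BHLHE40 was at 0.12 with at least 10 reads in each library. Per kb of called peak, which moved the median of all genes to −0.39, TCF15 was at −0.47 and TCF4 at −0.29. Of 86 values for single genes, 80 kept their sign and call. Peaks of 2 reads, and unlisted peaks in 3 libraries whose limits were near 7 to 9 reads per input read, set the limit of what these lists can show.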
